A study of Mus musculus with 4 samples.

Results

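Mesothelial genes and epithelial keratins and adhesion genes were read in epididymal fat of male mice, as a panel of 10 among the 19505 genes measured. They were chosen by symbol: the mesothelial genes Wt1, Msln, Upk3b and Lrrn4, the keratins Krt8, Krt18, Krt19 and Krt7, and the adhesion genes Epcam and Cdh1. Each symbol matched 1 probe set, and all 10 passed a floor on the mean over the arrays, set at log2 4.67, the 40th percentile of gene means. RNA was hybridised to 4 arrays of the Clariom S Mouse type, which carry 1 dye. GW-SA came from mice given GW4869, which blocks the release of extracellular vesicles, and subjected to synergist ablation, an operation that overloads a muscle by removing its helpers. GW-Sham came from mice given GW4869 with a sham operation. Veh-SA came from mice given DMSO as vehicle with synergist ablation, and Veh-Sham from mice given DMSO with a sham operation. The sources used here do not state strain, age, dose or duration, nor whether an array holds 1 mouse or a pool.

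The mesothelium is a single sheet of flattened cells that covers the abdominal organs and the surface of visceral fat. It comes from the mesoderm, yet it makes the simple keratins of gland and duct linings beside its own surface proteins. Keratin filaments are built from obligate pairs of a type I and a type II chain, and Krt18 with Krt8 is the usual pair of simple epithelium. Duct epithelium of the epididymis, which the fat pad adjoins, also makes these keratins with E-cadherin (the Cdh1 product) and Epcam, whereas mesothelium is usually low in both adhesion proteins.

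Each group holds 1 array, so replicate error is unknown. No p-value was computed, and every difference is a description of the arrays named, in log2 units of the deposited scale. In whole tissue, fewer cells of a type and less RNA per cell cannot be told apart. The arrays stand apart in reproductive tract transcripts, and this touches every result below. All 15 sperm and testis genes of the list used here stood at least 4 log2 units above Veh-SA on Veh-Sham, against 0 on GW-SA and 0 on GW-Sham. Of 18 epididymal epithelium genes 11 did so on GW-SA, 1 on GW-Sham and 4 on Veh-Sham. Among all genes above the floor, 5.18% spanned at least 4 log2 units over the arrays. Genes of the distal epididymis and vas deferens, 6 in number and chosen with earlier values known, had medians of 4.26 on GW-SA, 11.42 on GW-Sham, 3.50 on Veh-SA and 11.16 on Veh-Sham. Adipocyte identity was plain on every array, with medians over 17 adipocyte genes of 16.89 (GW-SA), 17.14 (GW-Sham), 16.98 (Veh-SA) and 16.63 (Veh-Sham). These genes also moved between arrays. In GW-SA minus Veh-SA 10 of the 17 were at least 1.5-fold lower and 0 higher (median difference -0.79), where 18.8% of genes above the floor were lower. In the difference between the overload differences 13 were lower and 0 higher (median -0.84), where 36.3% were lower. Background sets the lower limit: antigenomic probes, which match no mouse sequence, had a 95th percentile of 6.34 to 6.40. Of the 40 readings of the 10 genes, 4 lay under it, and 23 lay under the 95th percentile of the negative control probes, 9.01 to 9.27. On Veh-SA only 1 of the 15 sperm and testis genes and 1 of the 18 epididymal genes exceeded the antigenomic limit. Most differences behind the counts at 4 log2 units thus start from a reading within background.

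The panel is described in a mesothelial and an epithelial block, which were grouped by gene type and not by their array patterns. The 4 mesothelial genes were all highest on GW-Sham and spanned at most 2.03 log2 units over the arrays. The 6 keratin and adhesion genes were all lowest on Veh-SA, and 5 of them were highest on GW-SA, while Krt19 was highest on GW-Sham. Their ranges ran from 2.36 log2 units for Krt7 to 9.61 for Cdh1. Among the 11703 genes above the floor, 23.4% were highest on GW-Sham, 18.8% were lowest on Veh-SA, 7.48% were both highest on GW-SA and lowest on Veh-SA, and 5.18% spanned at least 4 log2 units.

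**Figure D1:**
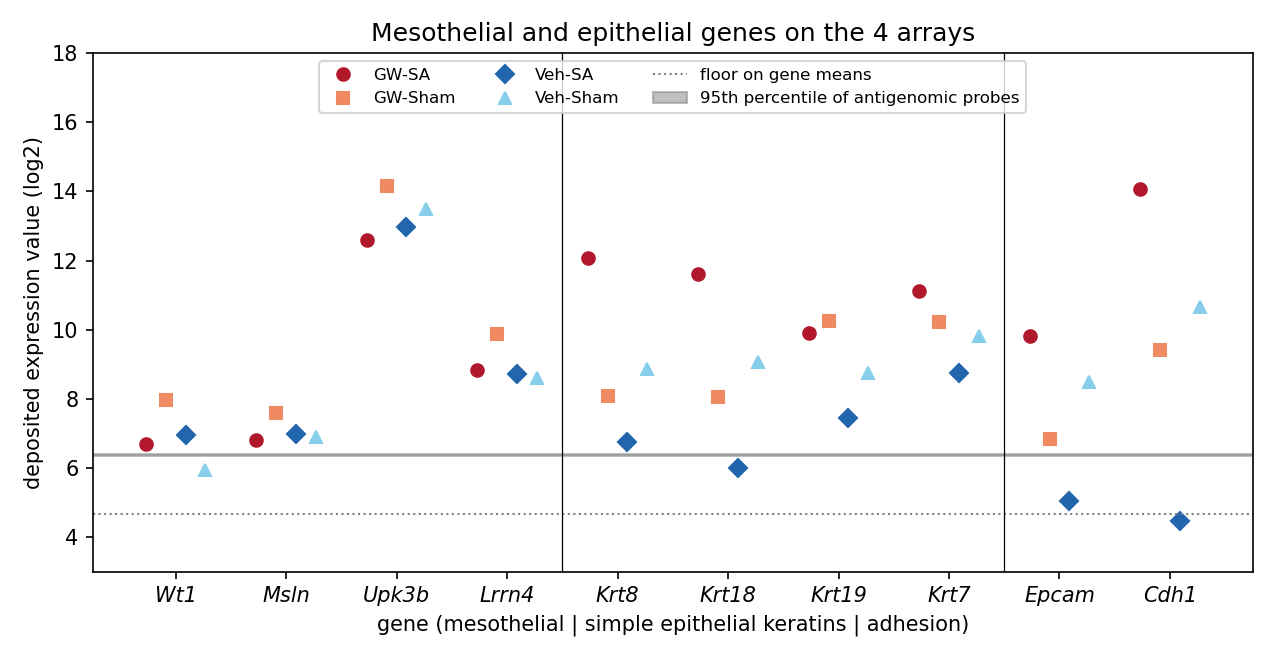
Deposited log2 values of the 10 genes on the 4 arrays, 1 point per array, with the floor on gene means (dotted, 4.67) and the 95th percentile of antigenomic probes (grey band, 6.34 to 6.40). GW-Sham is the top point of every mesothelial gene, and Veh-SA the bottom point of every keratin and adhesion gene.

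Among the mesothelial genes, Upk3b encodes uroplakin 3b, a membrane glycoprotein of bladder lining and mesothelium. It read 12.58 on GW-SA, 14.17 on GW-Sham, 12.98 on Veh-SA and 13.48 on Veh-Sham, and so stood above both kinds of background probe on every array. Its GW-Sham reading was the high one, and the closest neighbours in the order, GW-SA and Veh-SA, lay 0.40 apart. Lrrn4, a leucine-rich repeat membrane protein used as a mesothelial marker, read 8.84 on GW-SA, 9.88 on GW-Sham, 8.72 on Veh-SA and 8.61 on Veh-Sham. GW-Sham again stood above the other arrays, and Veh-SA and Veh-Sham were the closest, 0.11 apart.

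Wt1, a zinc finger transcription factor of mesothelium and of several urogenital cell types, read 6.70 on GW-SA, 7.96 on GW-Sham, 6.96 on Veh-SA and 5.93 on Veh-Sham. The Veh-Sham reading is under the antigenomic limit of that array, so differences from it are bounds at best. All 4 Wt1 readings lie under the 95th percentile of the negative control probes. Msln, which encodes mesothelin, a surface protein anchored to the membrane by a lipid, read 6.81, 7.59, 6.98 and 6.90 in the same array order. Its readings lie above the antigenomic limit but under that of the negative control probes, and its range of 0.78 was the narrowest of the panel.

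Overload under GW4869 (GW-SA minus GW-Sham) had a negative difference in each mesothelial gene, at -1.25 for Wt1, -0.78 for Msln, -1.59 for Upk3b and -1.04 for Lrrn4. All 4 were at least 1.5-fold lower, where 15.3% of genes above the floor were. The median of the 4 was -1.14, against -0.04 over all genes above the floor. The 17 adipocyte genes had a median difference of -0.38 in the same comparison. Centring the arrays on the mean of the adipocyte genes, an alternative added after seeing the data, left 2 of the 4 past 1.5-fold, with Msln at -0.27 and Lrrn4 at -0.52. Centring on their median level, which on every array is the reading of the lipid droplet gene Cidec, left 3, with Msln at -0.54.

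Overload under vehicle (Veh-SA minus Veh-Sham) did not give this picture. The differences were 1.03 for Wt1, 0.08 for Msln, -0.50 for Upk3b and 0.11 for Lrrn4, with a median of 0.10 against 0.26 over all genes. Only Wt1 passed 1.5-fold, in the higher direction that 30.2% of genes shared, and its difference shrank to 0.56 once the Veh-Sham reading was raised to the background limit. Centring on the mean of the adipocyte genes turned Msln to -0.33, Lrrn4 to -0.30 and the median to -0.32, so these have no settled direction.

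GW4869 against vehicle in sham mice (GW-Sham minus Veh-Sham) showed higher readings in all 4, by 2.03 for Wt1, 0.69 for Msln, 0.69 for Upk3b and 1.27 for Lrrn4. All 4 passed 1.5-fold, as did 28.9% of genes in that direction. The Wt1 value is 1.56 against the background limit, and Msln and Upk3b are at 0.48 each, short of 1.5-fold, when arrays are centred on the mean of the adipocyte genes. Centred on the adipocyte median level, Msln and Upk3b are at 0.19 each and the median of the 4 is 0.48, also short of 1.5-fold. The median difference of the 17 adipocyte genes was 0.15 here. In overloaded mice (GW-SA minus Veh-SA) 0 of the 4 passed 1.5-fold in either direction, where 18.4% of genes were higher and 18.8% lower. Their differences lay between -0.40 (Upk3b) and 0.12 (Lrrn4). Centred on the mean of the adipocyte genes they were 0.32 for Upk3b, 0.46 for Wt1, 0.55 for Msln and 0.83 for Lrrn4, so the direction of this comparison is not settled.

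A list of 13 further mesothelial genes, 12 of them measured, was read beside these. Lists of other genes are counted over every measured gene, with each reading under the antigenomic limit raised to it, because a floor on the mean favours genes that are high on 1 array. In GW-SA minus GW-Sham 5 of the 12 were then at least 1.5-fold lower and 2 higher, with a median of -0.53, and 1 of the 12 was under the limit on every array. Counted this way, 6.73% of all 19505 genes were lower and 5.74% higher. Gpm6a, a neuronal and mesothelial membrane glycoprotein, read 12.23 on GW-SA, 13.66 on GW-Sham, 12.66 on Veh-SA and 13.13 on Veh-Sham, the same order as Upk3b. Rspo1, a secreted amplifier of Wnt signalling, differed by -1.65 in GW-SA minus GW-Sham, and Nkain4, a membrane protein that associates with the sodium pump, by -1.14. Prg4, the joint and serosal lubricant lubricin, went the other way, at 9.85 on GW-SA and 8.11 on GW-Sham.

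Adipose fibroblast and progenitor genes had a like array order. Of the 11 measured, 9 were highest on GW-Sham, and 6 were at least 1.5-fold lower in GW-SA minus GW-Sham with 0 higher and a median of -0.78. Among all genes above the floor, 23.4% were highest on GW-Sham and 15.3% were lower in that comparison. Mfap5, a microfibril protein, differed by -1.78, and Cd248, a stromal surface antigen also called endosialin, by -1.51. No pattern particular to mesothelium is therefore claimed. The mean profile of Msln and Upk3b over the 4 arrays is nearly flat, so many genes of small range lie close to it. The nearest by root mean square distance were Ttll1 (0.03), Mturn (0.04), Kcnd3 (0.04), Palld (0.04) and Dusp23 (0.05), where Lrrn4 stood at 0.28 and Wt1 at 0.56.

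Sertoli cells of the testis also express Wt1, so their genes were read on the same arrays. Of 12 Sertoli genes, 3 exceeded the antigenomic limit on GW-SA and 2 on each of the other arrays. The median over all measured genes lay under that limit on every array, at 5.62 to 6.09. Trf and Inhbb, which fat also expresses, were over the limit on every array. The third on GW-SA was Sox9, a transcription factor of Sertoli cells and of several other cell types, which read 7.73 on GW-SA, 5.46 on GW-Sham, 6.23 on Veh-SA and 5.79 on Veh-Sham. Raised to the limit, its difference in GW-SA minus GW-Sham was at least 1.39. Amh, anti-Mullerian hormone, read 2.45 on GW-SA, 2.73 on GW-Sham, 2.57 on Veh-SA and 2.55 on Veh-Sham, all under the floor, and Fshr, the FSH receptor, reached at most 3.63. The part of Sertoli cells in the Wt1 readings was not tested.

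**Figure D2:**
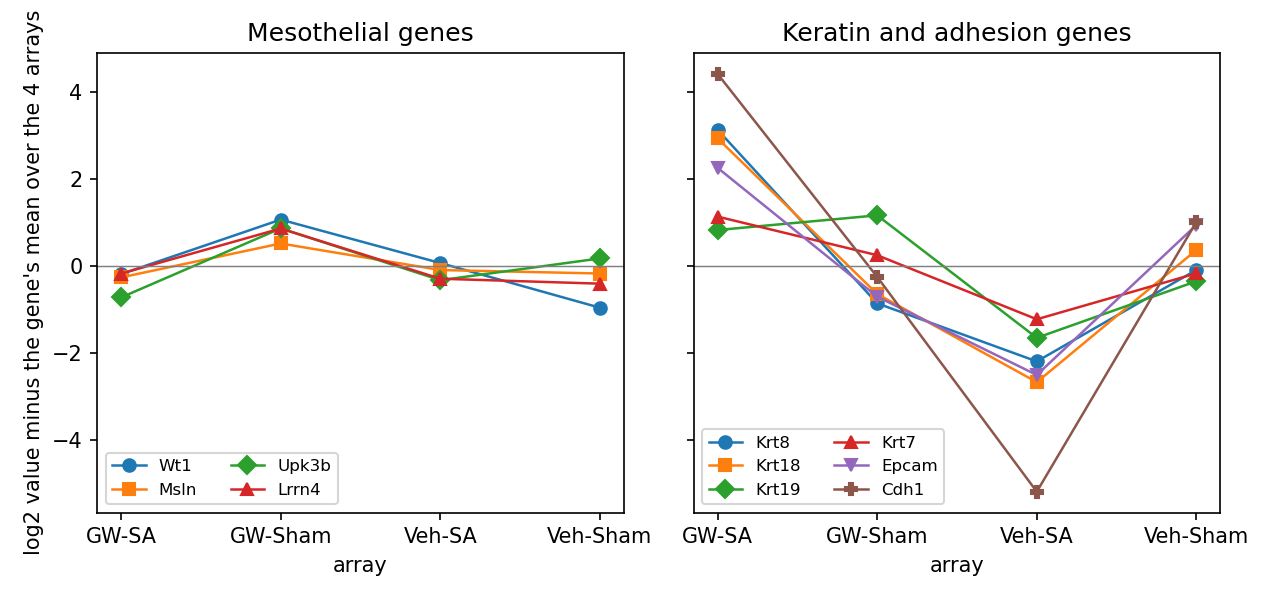
Log2 value of each gene minus its own mean over the 4 arrays, for the 4 mesothelial genes (left) and the 6 keratin and adhesion genes (right). Points are single arrays, and lines only join points of 1 gene. The mesothelial genes peak on GW-Sham within a narrow band, while Krt8, Krt18, Epcam and Cdh1 peak on GW-SA and reach their lowest point on Veh-SA.

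Krt8, the type II chain of the simple epithelial pair, read 12.08 on GW-SA, 8.09 on GW-Sham, 6.76 on Veh-SA and 8.86 on Veh-Sham. Krt18, its type I partner, read 11.62 on GW-SA, 8.04 on GW-Sham, 6.01 on Veh-SA and 9.05 on Veh-Sham. The pair ran in parallel: the difference between both genes moved by 0.94 over the arrays, while Krt8 spanned 5.33 and Krt18 5.61. Both were high on GW-SA, low on Veh-SA, and in between on the sham arrays, where GW-Sham minus Veh-Sham was -0.77 for Krt8 and -1.01 for Krt18.

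Cdh1, the calcium-dependent adhesion protein of epithelial adherens junctions, read 14.07 on GW-SA, 9.40 on GW-Sham, 4.46 on Veh-SA and 10.67 on Veh-Sham. Epcam, a calcium-independent adhesion molecule of epithelia, read 9.81 on GW-SA, 6.84 on GW-Sham, 5.04 on Veh-SA and 8.49 on Veh-Sham. Both shared the array order of Krt8 and Krt18, namely GW-SA, Veh-Sham, GW-Sham and Veh-SA from high to low. This order held for 3.12% of genes above the floor. On Veh-SA the Cdh1 reading was under the floor, and those of Krt18, Epcam and Cdh1 were under the antigenomic limit of 6.35, so that these 3 transcripts could not be told from background there.

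Krt7 and Krt19, keratins of duct linings that mesothelium makes as well, were flatter. Krt7, a type II chain, read 11.12 on GW-SA, 10.23 on GW-Sham, 8.76 on Veh-SA and 9.81 on Veh-Sham. Krt19, a type I chain, read 9.92 on GW-SA, 10.25 on GW-Sham, 7.44 on Veh-SA and 8.74 on Veh-Sham. They spanned 2.36 and 2.82 log2 units, shared the low reading on Veh-SA, and placed GW-Sham above Veh-Sham, as the mesothelial genes did. By root mean square distance Krt7 and Krt19 lay nearer to the mean profile of Msln and Upk3b (0.99 and 1.02) than to that of Krt8 and Krt18 (1.24 and 1.53). The Msln and Upk3b profile is nearly flat, however. Outside the panel, 10377 genes above the floor lay within 1.0 of it, against 83 within 1.0 of the Krt8 and Krt18 profile. The smaller distance therefore does not set these 2 keratins with the mesothelial genes.

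Overload under GW4869 came with higher readings in 5 of the 6 keratin and adhesion genes, by 4.67 for Cdh1, 3.99 for Krt8, 3.58 for Krt18, 2.96 for Epcam and 0.89 for Krt7. Krt19 differed by -0.34, or 0.18 with arrays centred on the mean of the adipocyte genes, and did not pass 1.5-fold. Over all genes 13.4% were at least that much higher in this comparison, and the median of the 6 was 3.27. Under vehicle the same 6 genes were all at least 1.5-fold lower in overload, where 16.9% of all genes were. The differences were -6.20 for Cdh1, -3.45 for Epcam, -3.04 for Krt18, -2.10 for Krt8, -1.30 for Krt19 and -1.06 for Krt7, with a median of -2.57. With background readings raised to their limit, Cdh1 stood at -4.32, Epcam at -2.15 and Krt18 at -2.71, and with arrays centred on all genes Krt7 was at -0.58, just short of 1.5-fold.

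**Figure D3:**
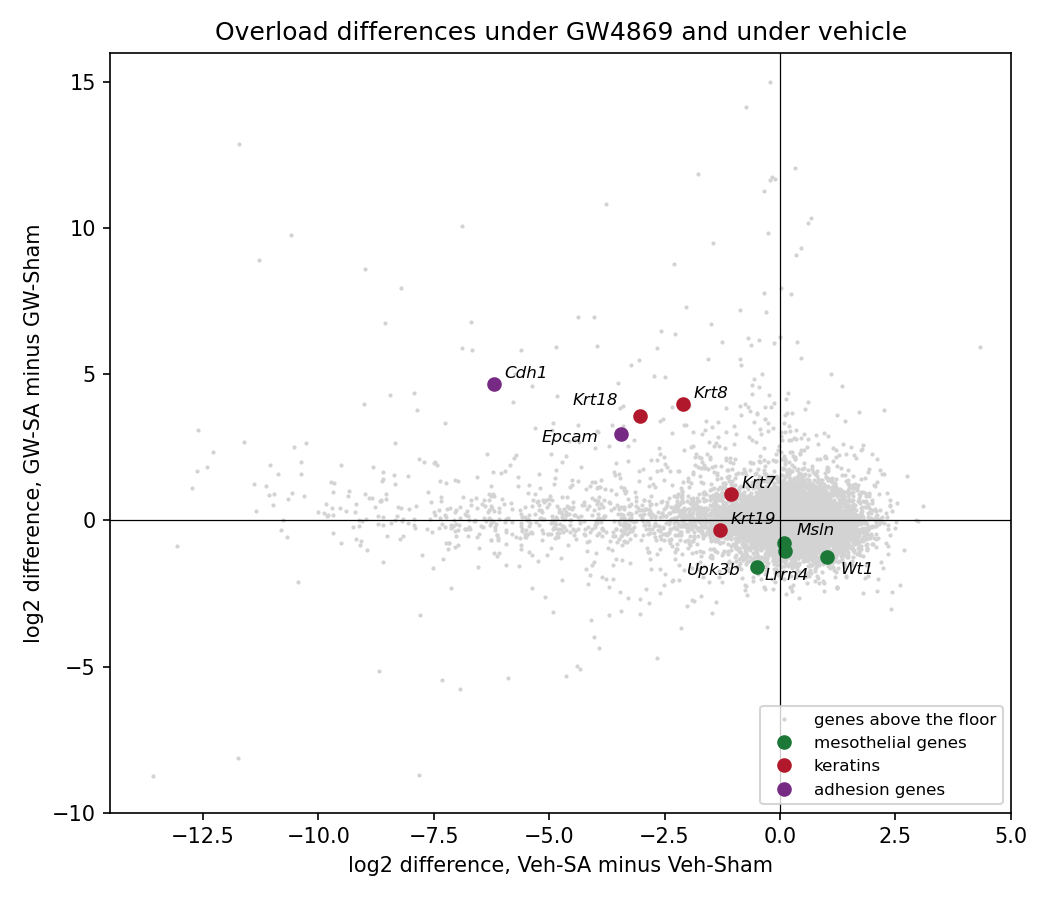
Log2 difference of overload against sham under GW4869 (vertical axis) and under vehicle (horizontal axis) for the 10 genes and, in grey, the 11703 genes above the floor. Cdh1, Krt8, Krt18, Epcam and Krt7 lie to the upper left, higher under GW4869 and lower under vehicle, and the mesothelial genes lie below 0 on the vertical axis.

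Krt8, Krt18, Krt7, Epcam and Cdh1 thus differed in opposite directions by at least 1.5-fold, higher under GW4869 and lower under vehicle, as 4.2% of genes did. Opposite signs of any size were found in 8 of the 10 genes and in 55.2% of all genes. Wt1 had the reverse, lower under GW4869 and higher under vehicle, as 5.53% of genes did, which makes 6 of 10 with opposite directions against 9.72% of genes. The Wt1 call is lost with readings raised to the background limit, where its vehicle difference is 0.56, which leaves 5 of 10 against 6.13% of genes. The difference between the overload differences was 10.87 for Cdh1, 6.62 for Krt18, 6.41 for Epcam, 6.10 for Krt8, 1.94 for Krt7 and 0.96 for Krt19. Against the background limit it was 8.99 for Cdh1, 6.29 for Krt18 and 5.11 for Epcam. It was positive and past 1.5-fold in 6 of 6, where 21.5% of genes were, and negative and past 1.5-fold in 4 of 4 mesothelial genes, where 36.3% were. With arrays centred on all genes Krt19 was at 0.38, short of 1.5-fold, which leaves 5 of 6. Centred on the mean of the adipocyte genes, only Wt1 of the 4 mesothelial genes stayed past 1.5-fold, at -1.35, and Msln was at 0.068.

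GW4869 against vehicle in overloaded mice gave each of the 6 genes its widest difference among the 4 pairwise comparisons of injection or surgery. For all but Krt19 this only restates the array order, highest on GW-SA and lowest on Veh-SA. GW-SA exceeded Veh-SA by 9.61 for Cdh1, 5.61 for Krt18, 5.33 for Krt8, 4.76 for Epcam, 2.48 for Krt19 and 2.36 for Krt7. All 6 passed 1.5-fold, against 18.4% of genes. Taken against the background limit on Veh-SA, Cdh1 was at least 7.73, Krt18 at least 5.27 and Epcam at least 3.46 log2 units higher. In sham mice 4 of the 6 were at least 1.5-fold lower with GW4869, where 14.4% of genes were: Epcam at -1.65, Cdh1 at -1.26, Krt18 at -1.01 and Krt8 at -0.77. Krt19 was 1.52 higher there, and Krt7 had 0.42, or -0.09 with arrays centred on the adipocyte median. Krt8 was at -0.41 with arrays centred on all genes.

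GW-Sham and Veh-SA were the arrays without the sperm signal of Veh-Sham or the epididymal signal of GW-SA, although GW-Sham carried the distal tract set. They differ in both injection and surgery, so their comparison is about neither alone. GW-Sham exceeded Veh-SA in all 10 genes, by 4.94 for Cdh1, 2.82 for Krt19, 2.03 for Krt18, 1.80 for Epcam, 1.47 for Krt7 and 1.34 for Krt8. The mesothelial differences were 1.19 for Upk3b, 1.16 for Lrrn4, 1.00 for Wt1 and 0.61 for Msln. Of all genes, 14.9% were at least 1.5-fold higher in that direction. Against the background limit Cdh1 was at least 3.06 and Krt18 at least 1.69 higher, and the Epcam difference was 0.50, short of 1.5-fold.

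Krt8 and Krt18 are neighbours on mouse chromosome 15 with 0 protein-coding genes between them, and Krt7 is on the same chromosome. Promoter sequence was in the RefSeq table for 6 of the 10 genes, namely Upk3b, Lrrn4, Krt8, Krt18, Krt7 and Epcam. The 250 bases before the annotated start of Krt8, Krt18 and Epcam are printed because these genes shared 1 array order, and those of Upk3b because it is the mesothelial gene that read above both kinds of background probe throughout. They lie in build GRCm38.p6 at chr15:102004343-102004592 (minus strand), chr15:102027966-102028215 (plus strand), chr17:87635729-87635978 (plus strand) and chr5:136038246-136038495 (plus strand), and run 5′ to 3′ along the gene's strand. Capitals mark matches to any of 5 motifs searched on both strands: TATAAA of core promoters, GGGCGG of Sp1 sites, the E-box type CAGGTG bound by Snail and Zeb repressors, the AP-2 motif GCCNNNGGC and the Grainyhead motif AACCGGTT. The motifs were chosen with the sequences in view.
Krt8: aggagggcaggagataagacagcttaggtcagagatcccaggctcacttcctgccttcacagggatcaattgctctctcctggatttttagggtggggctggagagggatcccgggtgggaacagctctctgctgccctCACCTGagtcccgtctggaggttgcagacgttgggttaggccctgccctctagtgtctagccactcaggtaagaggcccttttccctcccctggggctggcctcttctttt
Krt18: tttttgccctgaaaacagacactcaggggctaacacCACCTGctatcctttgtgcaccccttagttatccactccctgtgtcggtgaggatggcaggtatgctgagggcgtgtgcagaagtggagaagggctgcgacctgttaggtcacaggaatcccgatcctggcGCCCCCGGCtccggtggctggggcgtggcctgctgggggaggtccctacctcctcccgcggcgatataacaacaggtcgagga
Epcam: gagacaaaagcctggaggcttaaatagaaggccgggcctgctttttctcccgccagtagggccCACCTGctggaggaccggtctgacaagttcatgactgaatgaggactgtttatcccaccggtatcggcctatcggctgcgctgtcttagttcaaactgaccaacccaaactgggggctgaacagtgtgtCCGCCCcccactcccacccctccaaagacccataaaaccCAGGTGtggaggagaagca
Upk3b: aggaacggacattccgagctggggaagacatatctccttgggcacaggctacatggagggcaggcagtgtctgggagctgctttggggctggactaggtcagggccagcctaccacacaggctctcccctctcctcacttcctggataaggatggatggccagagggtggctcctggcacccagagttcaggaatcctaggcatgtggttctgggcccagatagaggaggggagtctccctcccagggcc

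CAGGTG, read on the opposite strand as CACCTG, occurred in 4 of the 6 promoters: once in Krt8 at bases 111 to 106 before the start, once in Krt18 at bases 214 to 209, once in Krt7 at bases 44 to 39, and in Epcam at bases 187 to 182 and again at bases 19 to 14. It was in 17.1% of 27025 promoters of that length. Neither mesothelial promoter held it. GGGCGG was in Krt7 and Epcam (32.9% of all promoters), and GCCNNNGGC in Lrrn4, Krt18 and Krt7 (13.6%). In Krt7 the GCCNNNGGC and GGGCGG matches overlap at 1 place. TATAAA was in 0 of the 6 windows (13.0% of all) and AACCGGTT in 0 (0.1%). With the 50 bases after the start included, TATAAA was found in Krt8, across the annotated start itself (14.2% of all 300-base windows). These matches describe letters and say nothing on binding.

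Other epithelial genes, from lists drawn up from general knowledge, were read for the same comparisons, again with readings under the antigenomic limit raised to it. In GW-SA minus GW-Sham 6 of 13 tight junction genes passed 1.5-fold in the higher direction and 0 in the lower, where 5.74% of all measured genes were higher and 6.73% lower. In Veh-SA minus Veh-Sham 2 were lower and 0 higher, where 9.37% of all measured genes were lower and 13.8% higher. The same shares hold beside the counts of the epithelial and cadherin lists that follow. Over the limit on GW-SA alone were 4 of the 13, and 4 were under it on every array. Cldn4, a claudin of tight epithelia, read 11.27 on GW-SA, 5.77 on GW-Sham, 3.04 on Veh-SA and 6.09 on Veh-Sham, so it stood clear of background on GW-SA alone. Cldn1, another claudin, read 11.14 on GW-SA, 5.84 on GW-Sham, 5.46 on Veh-SA and 6.30 on Veh-Sham. It too was over the limit on GW-SA alone, at least 4.80 above GW-Sham, and gave no vehicle difference that could be told from background. Cldn3 read 8.82, 6.26, 3.39 and 7.10 in that array order, at least 2.48 higher in overload under GW4869 and at least 0.76 lower under vehicle. Ocln, which encodes occludin, read 7.19, 4.90, 3.77 and 5.35.

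Of 11 epithelial surface and trafficking genes, 9 were higher and 0 lower in overload under GW4869, and 4 were lower and 0 higher under vehicle. The same 4 genes showed both. Prom1, the membrane protrusion protein prominin, read 13.50 on GW-SA, 8.49 on GW-Sham, 6.02 on Veh-SA and 11.76 on Veh-Sham. Spint1, an inhibitor of epithelial serine proteases, was at least 2.88 higher under GW4869 and had -0.40 under vehicle. Prss8, the protease prostasin, and Muc1, a membrane mucin, were over the limit on GW-SA alone. They were at least 1.09 and 0.88 higher under GW4869, and their vehicle differences lay within background.

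Among 12 epithelial transcription and splicing regulators, 6 were higher and 1 lower in overload under GW4869, and 1 was higher and 1 lower under vehicle. Ehf, an ETS factor of epithelia, read 11.45 on GW-SA, 6.14 on GW-Sham, 4.38 on Veh-SA and 7.61 on Veh-Sham. Grhl2, a Grainyhead factor that maintains Cdh1 and claudin expression, read 7.25, 4.77, 2.68 and 5.29 in the same order, the first of these alone above the antigenomic limit. Elf3, an ETS factor, and Esrp1, an epithelial splicing regulator, were also over the limit on GW-SA alone, at least 1.78 and 1.57 above GW-Sham.

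Not every epithelial gene followed. Of 9 desmosome genes, 2 were higher and 1 lower under GW4869, with a median of 0.02, and 4 were under the limit on every array. Dsg2, a desmosomal cadherin, and Dsp, the plaque protein desmoplakin, were the higher ones, by at least 2.35 and 1.31, and the plaque protein Ppl differed by -1.21. Keratins of stratified, basal and other epithelia were mostly undetected: 1 of 10 measured passed the floor, Krt80, and 1 of 10 exceeded the antigenomic limit on GW-SA, against 0 on the other arrays. That gene was Krt14, a basal cell keratin named after its values were seen, at 6.39.

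Partners and relatives of Cdh1 differed less between arrays. The catenins Ctnna1 and Ctnnd1, which link cadherins to the cytoskeleton in most cells, differed by 0.27 and 0.38 under GW4869 and by 0.81 and -0.05 under vehicle. Cdh5, the endothelial cadherin, read 12.54 on GW-SA, 13.19 on GW-Sham, 13.36 on Veh-SA and 12.96 on Veh-Sham. Of 5 other cadherins, 1 was at least 1.5-fold higher under GW4869 (Cdh3, by at least 0.67) and 1 lower (Cdh5 at -0.65).

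The 5 genes nearest to the mean profile of Krt8 and Krt18 over the 4 arrays were Spint1, at a root mean square distance of 0.17, Clu (0.28), Cd24a (0.31), Prss8 (0.37) and Tmem150c (0.38). Spint1 read 9.22 on GW-SA, 5.81 on GW-Sham, 4.14 on Veh-SA and 6.74 on Veh-Sham, so its lower readings, like those of Prss8, lay within background. Clu, the secreted chaperone clusterin, read 19.40, 16.14, 14.68 and 16.76, and Cd24a, a mucin-like surface protein, 12.76, 9.75, 7.58 and 9.92.

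Reproductive duct genes were read beside these results. Pax8 and Emx2, transcription factors of the Wolffian duct and the epididymal epithelium that forms from it, were lowest on Veh-SA, where both were under the antigenomic limit. Pax8 read 9.63 on GW-SA, 7.89 on GW-Sham, 4.16 on Veh-SA and 9.00 on Veh-Sham, and Emx2 9.00, 7.72, 5.79 and 7.46. Pax2, another such factor, read 6.22, 5.83, 3.30 and 6.78. It was over the limit on Veh-Sham alone, so the order of its other readings lies within background. Of the 4 genes measured in this list, 1 was under the limit on every array. The epididymal epithelium list had medians of 13.15 on GW-SA, 3.82 on GW-Sham, 3.53 on Veh-SA and 3.99 on Veh-Sham. Its 18 genes reached 19.53 on GW-SA (Gpx5, a secreted glutathione peroxidase), 13.16 on GW-Sham, 6.69 on Veh-SA and 16.10 on Veh-Sham. Of the 18, 14 exceeded the antigenomic limit on GW-SA, 2 on GW-Sham, 1 on Veh-SA and 5 on Veh-Sham. The median over all 19505 genes was under that limit on each array, at 5.84 on GW-SA, 5.73 on GW-Sham, 5.62 on Veh-SA and 6.09 on Veh-Sham. The exact share of all genes over it is not given here. Adam7, a sperm-surface protease homologue made by the epididymis, read 16.01 on GW-SA, 3.11 on GW-Sham, 2.92 on Veh-SA and 14.64 on Veh-Sham. On Veh-SA 1 of the 18 and 0 of the 6 distal epididymis and vas deferens genes were over the limit, and Cdh1, Epcam and Krt18 were within background. On GW-Sham 2 of the 18 and 6 of the 6 distal genes were over it. Cdh1 read 9.40 there, Krt18 8.04 and Epcam 6.84, all above that array's limit of 6.34. The part of duct tissue in the keratin and adhesion differences was not tested, and with 1 array per group it cannot be told apart from injection or surgery. The mesothelial genes were highest on GW-Sham, where the distal epididymis and vas deferens genes had a median of 11.42. Those genes had a like median on Veh-Sham (11.16). On that array Wt1 read 5.93, which is under the antigenomic limit, and Lrrn4 8.61, the lowest reading of each. Msln read 6.90, between its Veh-SA and GW-SA readings, and Upk3b 13.48, its highest after GW-Sham. The part of distal tract tissue in the mesothelial differences was not tested.

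**Figure D4:**
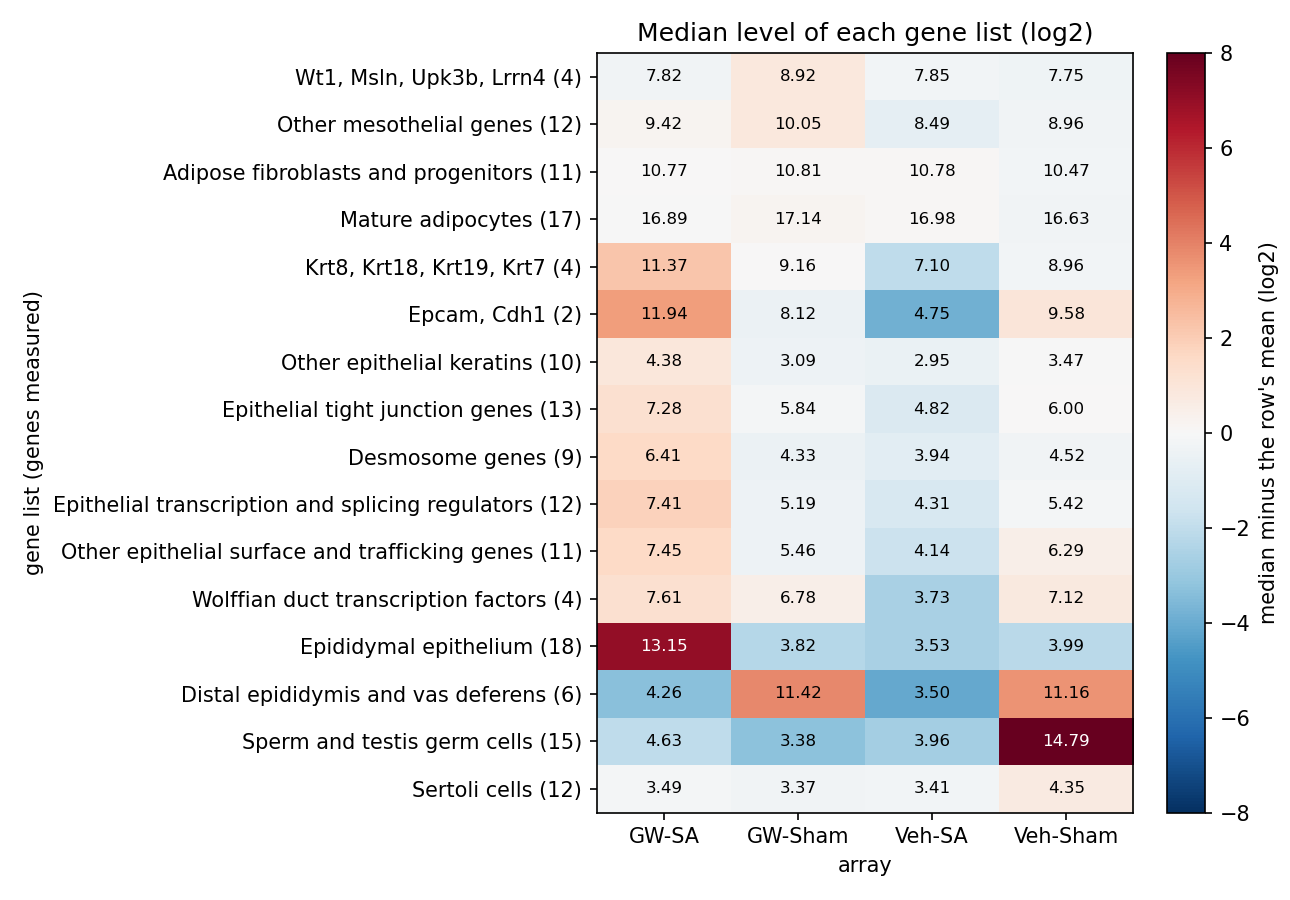
Median log2 level of each gene list on each array (number in each cell), coloured by its difference from the row's own mean, so that colours compare arrays within a row. The keratin, adhesion, tight junction and Wolffian duct rows are lowest on Veh-SA, and the top 4 rows, of mesothelial, stromal and adipocyte genes, are highest on GW-Sham.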

How the data were processed

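For each probe set the authors deposited a log2 expression value, and the submitters' processing notes name Partek and RMA. The sources used here do not state versions, settings or genome build. Deposited log2 values reach 19.93, above the range of an ordinary array scan, and the step behind this was not identified, so differences are on the deposited scale only. Depth is not defined for arrays, and their number limits the precision.

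Groups came from the sample titles. Of 28846 rows, 19572 had 1 gene symbol in the platform annotation, for 19505 genes. Where a gene had several probe sets, that of the highest mean was kept, and 11703 genes exceeded the floor. Differences between arrays and counts past 1.5-fold (0.58 on the log2 scale) were computed in Python 3.11.15 with pandas 2.3.3 and numpy 2.4.6, and the counting was tested on simulated data. No test across samples was possible.

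The genes, comparisons and lists were chosen with earlier results of these data known. Named genes are the 10 of the panel, up to 4 genes of each list with the largest difference in GW-SA minus GW-Sham among those above the floor, and the 5 nearest profiles. A few others are named for their role (Amh, Fshr, Krt14, Cidec). Promoters are RefSeq, GRCm38.p6. Alternatives were 4 scalings and 2 background limits (1 of each added after seeing the data), averaged probe sets, no floor and a 2-fold threshold.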

Additional observations from a re-analysis of the deposited data

Results flagged for a closer look

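Overload differences under GW4869 and under vehicle had opposite signs in 8 of the 10 genes, and this was not tested, since each group holds 1 array. The difference between the overload differences was 10.87 for Cdh1 (4.67 under GW4869 and -6.20 under vehicle), 6.62 for Krt18 (3.58 and -3.04), 6.41 for Epcam (2.96 and -3.45) and 6.10 for Krt8 (3.99 and -2.10). It was 1.94 for Krt7 (0.89 and -1.06), -2.28 for Wt1 (-1.25 and 1.03), -1.15 for Lrrn4 (-1.04 and 0.11) and -0.86 for Msln (-0.78 and 0.08). Opposite signs of any size were found in 55.2% of genes above the floor. With both differences past 1.5-fold the share was 9.72%, against 6 of the 10 genes, or 6.13% against 5 with readings raised to the antigenomic limit, where Cdh1 was at 8.99, Krt18 at 6.29 and Epcam at 5.11. The vehicle differences of Msln and Lrrn4 turn negative when arrays are centred on the mean of the adipocyte genes, at -0.33 and -0.30.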

How the results depend on the processing

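Of 350 single-gene values under the alternatives, 314 moved by less than 1.5-fold (0.58 log2 units), 35 moved further, and 1 past 1.5-fold changed sign. Of 70 group medians 62 and of 90 counts 81 stayed within the same limits. These tallies include settings that could move little or nothing. Each gene had 1 probe set, so the 50 values with averaged probe sets equal the main ones. All 10 genes passed the floor, so dropping it could change no count of them. Setting readings under the floor to it altered only the Cdh1 reading on Veh-SA. Centring on the median level of the adipocyte genes, which is that of Cidec on every array, took the median difference between the overload differences to -0.52 for the mesothelial genes and 6.85 for the keratin and adhesion genes, the count lower in it to 1, and the count higher with GW4869 in sham mice to 3. Centring on the mean of the 17 adipocyte genes, added after seeing the data, took those medians to -0.19 and 7.18 and those counts likewise to 1 and 3. It left 2 genes lower in overload under GW4869, turned the difference between the overload differences of Msln to 0.068, and gave medians with GW4869 in overloaded mice of 0.50 (mesothelial) and 5.76 (keratin and adhesion). Centring on all genes gave 2 genes higher in overload under vehicle and 1 lower with GW4869 in overloaded mice. Raising readings to the antigenomic limit, added after seeing the data, gave keratin and adhesion medians of 4.37 for GW4869 in overloaded mice and 5.60 for the difference between the overload differences, and 0 genes higher in overload under vehicle. A 2-fold threshold left 3 genes higher with GW4869 in sham mice. The cause was not tested, except that a higher threshold or limit lowers counts by construction.

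Among all genes, the share higher among those past 1.5-fold under GW4869 overload was 46.7%, 34.9% centred on all genes 74.1% centred on the adipocyte median and 90.9% on the adipocyte mean. Under vehicle overload it was 64.2%, 83.6%, 35.5% and 29.9%. The median gene differences there were -0.04, -0.14, 0.21 and 0.48 under GW4869, and 0.26, 0.73, -0.09 and -0.16 under vehicle. No paired analysis was possible because each group holds 1 array, and for the same reason none could be left out. The lowest readings are limited by background signal.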
